A study of Mus musculus with 6 samples.

Results

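A set of 10 genes whose products sit on the endothelial cell surface, Clec14a, Cd93, Emcn, Eng, Esam, Mcam, Ly6a, Ly6c1, Robo4 and Cd34, were followed by RNA sequencing in cultured mouse brain microvascular endothelial cells (BMVECs). They were taken by symbol from the deposited expression table, where all 10 were found among 54532 genes. Wild-type C57BL/6J mice gave the brain vessel fragments from which these cells grew out under puromycin selection. One group received processed mouse IL-36β (DEVD mIL-36β) at 100 ng/ml for 24 h, and the other was left untreated, with no time or vehicle given. There were 3 libraries per group, IL-36β replicates 1 to 3 (libraries A24, D24 and E24) and untreated replicates 1 to 3 (A0, B0 and D0). Each library held 15180389 to 19544689 reads assigned to genes. The labels do not give the age or sex of the mice, whether animals were pooled, or whether libraries of a group came from separate cultures, so p-values cover only library-to-library spread.

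These genes serve as identity markers of endothelium because blood vessels express them at much higher levels than most other tissues. CLEC14A and CD93 are related C-type lectin-like receptors that bind the endothelial matrix protein multimerin-2. Endomucin (Emcn) and CD34 are sialomucins of the luminal surface, and ESAM, MCAM and ROBO4 are immunoglobulin-domain proteins of endothelial contacts and signalling. Endoglin (Eng) is a coreceptor for ligands of the BMP and TGF-β family, and Ly6a (also called Sca-1) and Ly6c1 encode small proteins held in the membrane by a lipid anchor. Some are known from other cells too, Mcam in pericytes and smooth muscle, and Cd34 and Ly6a in progenitor and stromal cells. IL-36β belongs to the IL-1 cytokines, and the series title places the experiment in a study of vessel stability and permeability in the central nervous system.

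Upstream sequence is shown for the members with the lowest fold change (Clec14a), the highest (Cd34) and the one nearest to no difference (Eng), so that their start regions can be compared. RefSeq's promoter table (build GRCm38.p6) held 7 of the 10 members, and Cd93, Esam and Ly6a were the members not matched. Each stretch runs 5′ to 3′ on the gene's strand and holds the 200 bases from 250 to 51 bases before the RefSeq start. Capitals mark the ETS core GGAA or its reverse complement TTCC, the letters bound by ETS factors such as ERG. The Clec14a stretch lies at chr12:58269309-58269508 (minus strand), that of Cd34 at chr1:194938571-194938770 (plus strand) and that of Eng at chr2:32646345-32646544 (plus strand).
Clec14a: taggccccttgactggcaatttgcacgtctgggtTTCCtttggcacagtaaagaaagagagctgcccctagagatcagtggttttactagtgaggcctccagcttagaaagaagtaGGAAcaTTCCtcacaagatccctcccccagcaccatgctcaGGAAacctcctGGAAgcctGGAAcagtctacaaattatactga
Cd34: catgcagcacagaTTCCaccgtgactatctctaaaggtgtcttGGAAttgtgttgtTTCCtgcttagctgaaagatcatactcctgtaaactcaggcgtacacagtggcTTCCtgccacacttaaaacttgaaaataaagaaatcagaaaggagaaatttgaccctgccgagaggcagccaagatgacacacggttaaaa
Eng: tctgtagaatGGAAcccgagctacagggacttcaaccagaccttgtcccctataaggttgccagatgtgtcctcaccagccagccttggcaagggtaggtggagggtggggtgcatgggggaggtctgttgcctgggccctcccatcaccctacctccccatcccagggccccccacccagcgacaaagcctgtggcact
The ETS core was found 6 times in the Clec14a stretch, 4 times in that of Cd34 and once in that of Eng. It was present in 89.2% of 32851 promoters over the same window, with a median of 2 matches, so its presence does not set these genes apart. The NF-κB consensus matched none of the 8 windows of the 7 members, Ly6c1 having 2 windows, and it matched 3.13% of all promoters.

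All 10 members were well above the detection limit, with 887 to 53436 reads each per library. Levels are given as FPKM, fragments per kilobase of gene length scaled by a size factor per library, so genes of different length can be compared. In untreated cells the order ran from Ly6a at 989 ± 188 FPKM, through Eng at 576 ± 56.4, Emcn at 466 ± 18.9, Esam at 339 ± 7.53, Cd93 at 262 ± 50.7, Ly6c1 at 232 ± 7.16, Robo4 at 166 ± 17.8, Mcam at 132 ± 25.9 and Cd34 at 81.4 ± 13.7, to Clec14a at 25.2 ± 2.08 (SD, n = 3). In the IL-36β libraries 5 of the 9 neighbouring pairs in this order had ranges that did not meet, and in the untreated libraries 7 did. The pairs that met in the untreated libraries were Cd93 with Ly6c1 and Robo4 with Mcam, which are not ordered beyond their spread. With the libraries of both groups pooled, 3 pairs stayed apart, namely Ly6a above Eng, Esam above Cd93 and Cd34 above Clec14a. Ly6a was the 19th most abundant of the 12618 genes tested and Clec14a the 2566th. The summed level of the members was 3283 to 3708 FPKM with IL-36β and 3161 to 3412 FPKM in untreated cells.

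**Figure D1:**
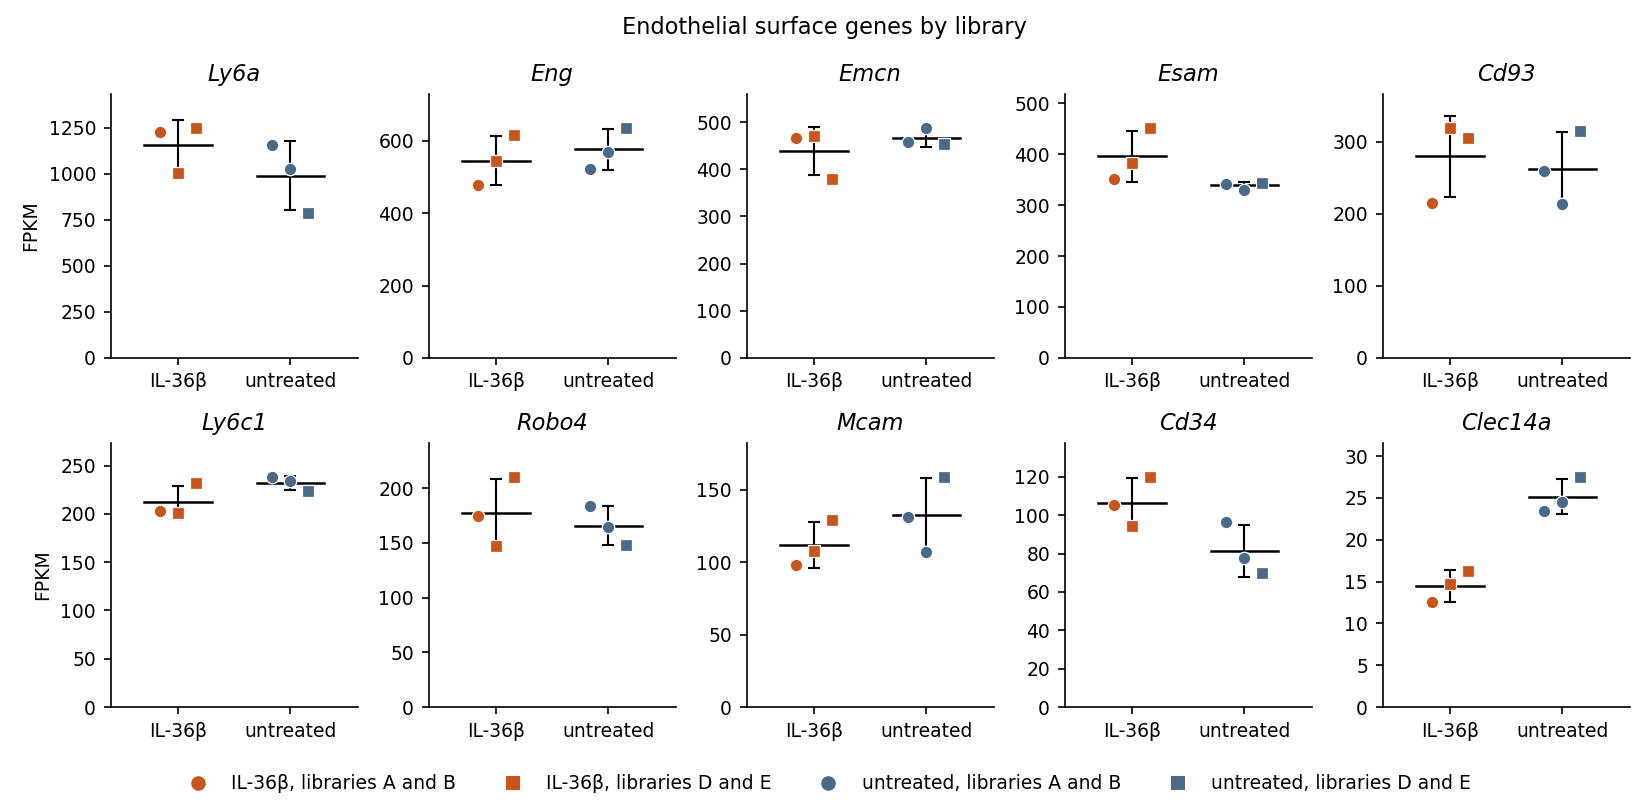
FPKM of each of the 10 genes by library, with IL-36β libraries on the left and untreated libraries on the right; bars are means with SD (n = 3 each), circles are libraries lettered A and B, and squares those lettered D and E. Clec14a lies lower in all 3 IL-36β libraries, Esam lies slightly higher in them, and the groups of the other 8 genes overlap.

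With IL-36β, the fitted log2 fold changes of the 10 surface genes ran from -0.78 for Clec14a to 0.39 for Cd34, and the 95% intervals of the other 8 contained 0. No member passed the test across all genes (limma, Benjamini-Hochberg adjusted p under 0.05), against a background of 0.166% of 12618 genes called higher and 0.0159% called lower. Fitted fold changes were above 0 on the log2 scale in 5 members and below 0 in 5. Their median log2 fold change was 0.0030, beside 0.0023 over all genes tested. An unadjusted p under 0.05 was reached by 2 members, Clec14a and Cd34, and by 10.4% of all genes tested (4.41% lower and 5.96% higher). With other models of the same comparison no member was called higher; the share of genes called higher was 0.262% in edgeR, 1.29% in DESeq2, 0.674% with the set of libraries as a limma term, 0.531% with the library letter as a block and 0.23% with library weights. With the title number as a block no member was called, against 0.0951% of genes called higher and 0.00793% called lower. In these bulk libraries, fewer cells of a type and less RNA per cell cannot be told apart.

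**Figure D2:**
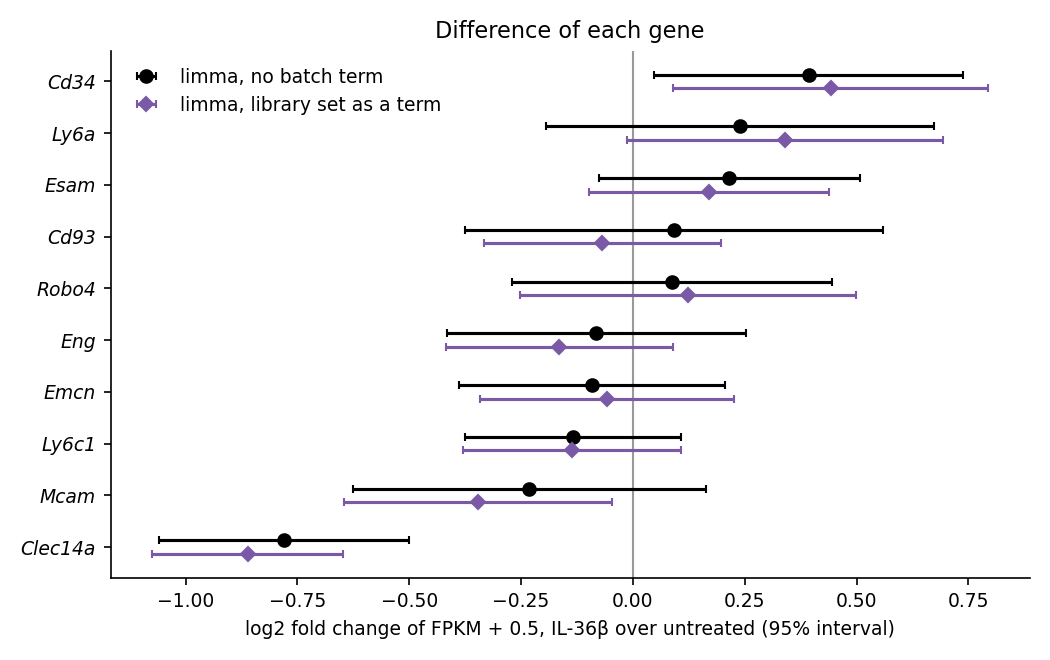
Log2 fold change of FPKM + 0.5 (horizontal axis, IL-36β over untreated) with its 95% interval for each gene, from limma without a batch term (black circles) and with the library set as a term (purple diamonds). Only the intervals of Clec14a and Cd34 leave out 0 in both fits; with the set term that of Mcam does so too.

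Clec14a encodes a single-pass lectin-like receptor of endothelium (ENSMUSG00000045930, chromosome 12, 58264720 to 58269290, minus strand, GRCm38) and has 1 annotated exon. It stood at 12.5, 14.7 and 16.2 FPKM in IL-36β replicates 1 to 3 and at 23.5, 24.5 and 27.5 FPKM in untreated replicates 1 to 3. Every IL-36β library was below every untreated one, which was so for 7.24% of all genes tested. The means were 14.5 ± 1.88 FPKM with IL-36β and 25.2 ± 2.08 FPKM untreated, a fold of 0.582 (95% interval 0.480 to 0.707). It had the 38th smallest p of 12618 genes, and its limma adjusted p of 0.0872 missed the threshold.

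The call of Clec14a depended on the model, while the size of its difference varied little. On the reads recovered from FPKM it passed as lower in edgeR (fold 0.574, adjusted p = 0.0373), where 0.0317% of genes were called lower. It also passed in DESeq2 (fold 0.573, adjusted p = 6.93e-06), which called 0.808% of genes lower. The libraries were also divided into those lettered A and B and those lettered D and E, letters whose meaning the labels do not give. With these 2 sets as a term in limma the fold was 0.550 (0.475 to 0.638, adjusted p = 0.0147), in a model that called 0.135% of genes lower. Within the sets, where 1 library of either group stands alone, the fold was 0.531 in A and B and 0.570 in D and E. It further passed with the library letter as a block (adjusted p = 0.0288, 0.0872% called lower) and with library weights (adjusted p = 0.0431, 0.0396% called lower). In the letter block B0 and E24 have no partner of the same letter. That fit therefore rests only on A24 with A0 and D24 with D0. When any 1 library was left out, neither limma nor edgeR called Clec14a (adjusted p of 0.161 to 0.307 and 0.0674 to 0.157). DESeq2 called it in all 6 such fits (3.98e-07 to 0.00102). The model with the set term called it without IL-36β replicate 2 (0.0455) or replicate 3 (0.0133). It did not without untreated replicate 1 (0.0669) or replicate 2 (0.0826). Without IL-36β replicate 1 or untreated replicate 3, a set lacks either IL-36β or untreated libraries. Those fits repeat the within-set folds of 0.570 and 0.531. In the authors' deposited table of 660 genes, in which no p-value exceeds 0.05 and every adjusted p is 0.999, none of the 10 members appears. That table also holds columns of 4 libraries matching no label, so its p-values may rest on other libraries than these 6.

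**Figure D3:**
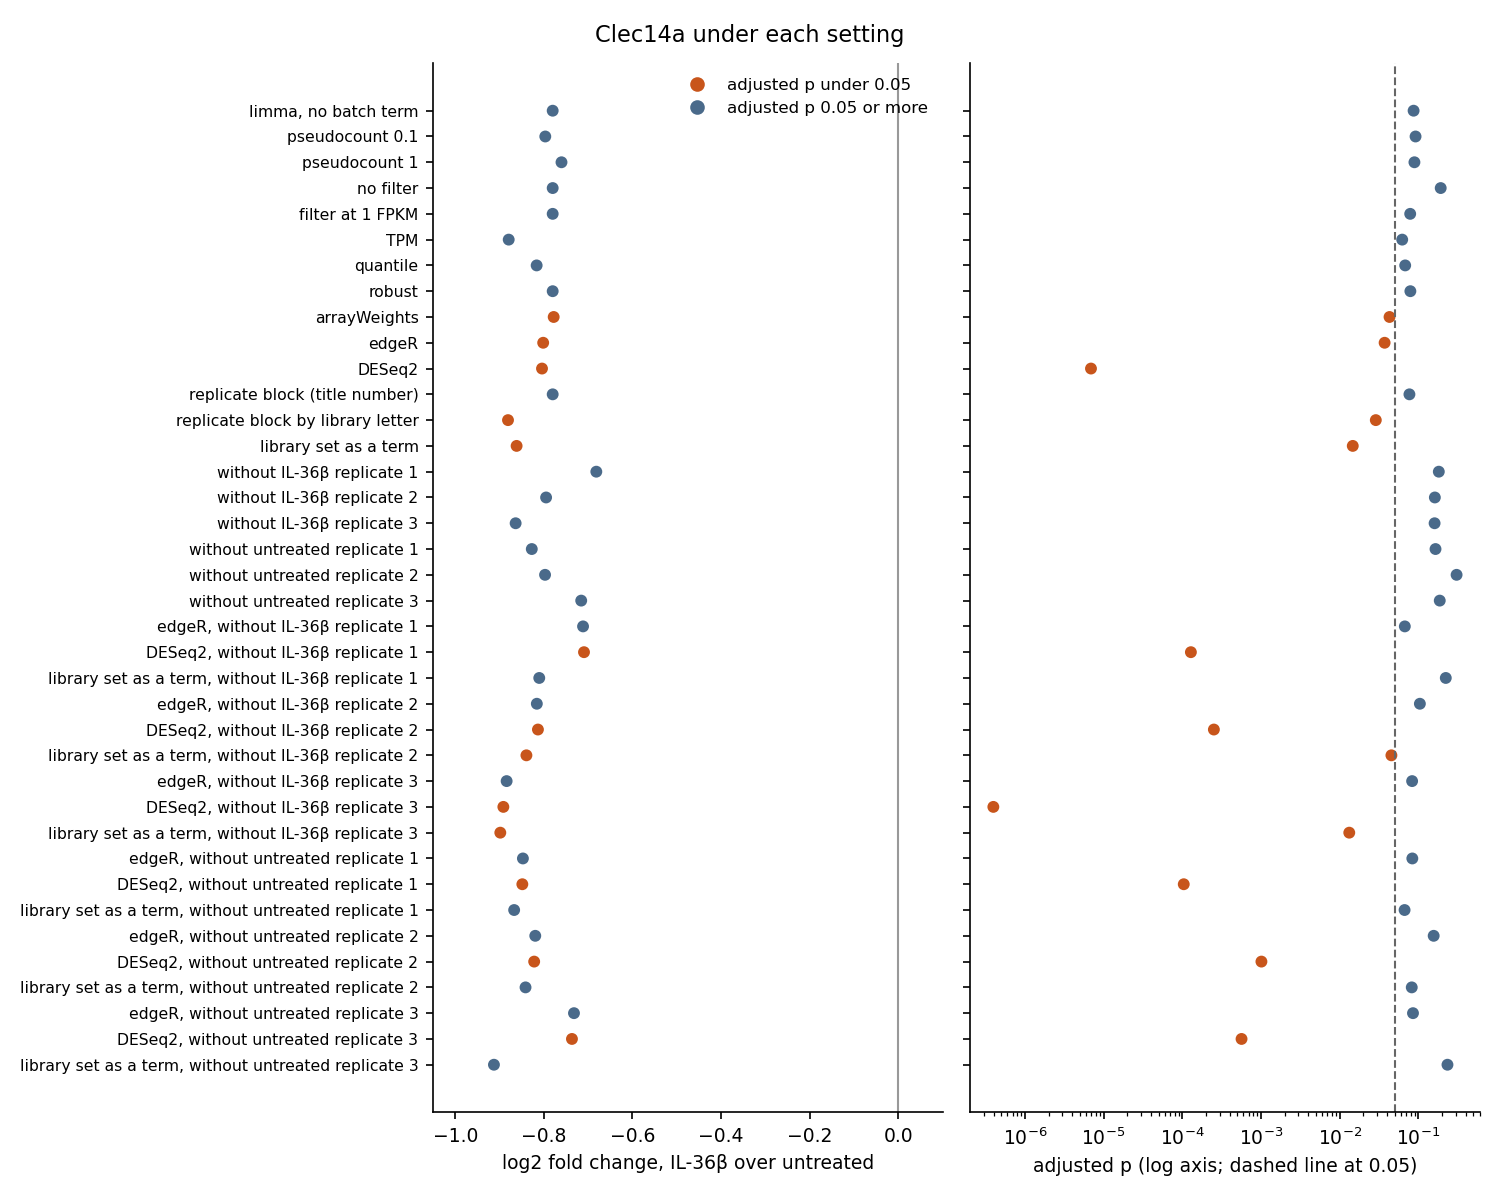
Clec14a under each setting, with the log2 fold change (left) and the adjusted p on a log axis (right); orange points are past the threshold of 0.05, marked by the dashed line. The log2 fold change stays between -0.91 and -0.68 while the adjusted p lies on both sides of the line.

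Ratios taken inside a library do not depend on how libraries are scaled, so Clec14a was also set against other endothelial genes. Its log2 ratio to Cd93 was -4.11, -4.44 and -4.24 in IL-36β replicates 1 to 3 and -3.46, -3.12 and -3.52 in untreated replicates 1 to 3. On a linear scale Clec14a was thus 5.22% of Cd93 with IL-36β and 9.68% in untreated cells (geometric means). Against the median of the other 9 members the log2 ratio differed by -0.85, against Cdh5 (VE-cadherin) by -0.82 and against Pecam1 (CD31) by -0.95. The median of the other members was Cd93 itself in 5 of 6 libraries. In each of the 4 ratios of Clec14a the groups did not overlap, which in an exact two-sided permutation test gives p = 0.1, the smallest that 3 against 3 libraries allow (0.14 adjusted over the 7 ratios computed). These 4 ratios share the Clec14a values and were chosen with its result known. The log2 ratio of Cd34 to Emcn differed by 0.49 (exact permutation p = 0.2, 0.233 adjusted) and that of Esam to Robo4 by 0.13 (exact permutation p = 0.4, 0.4 adjusted), with groups that overlapped.

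**Figure D4:**
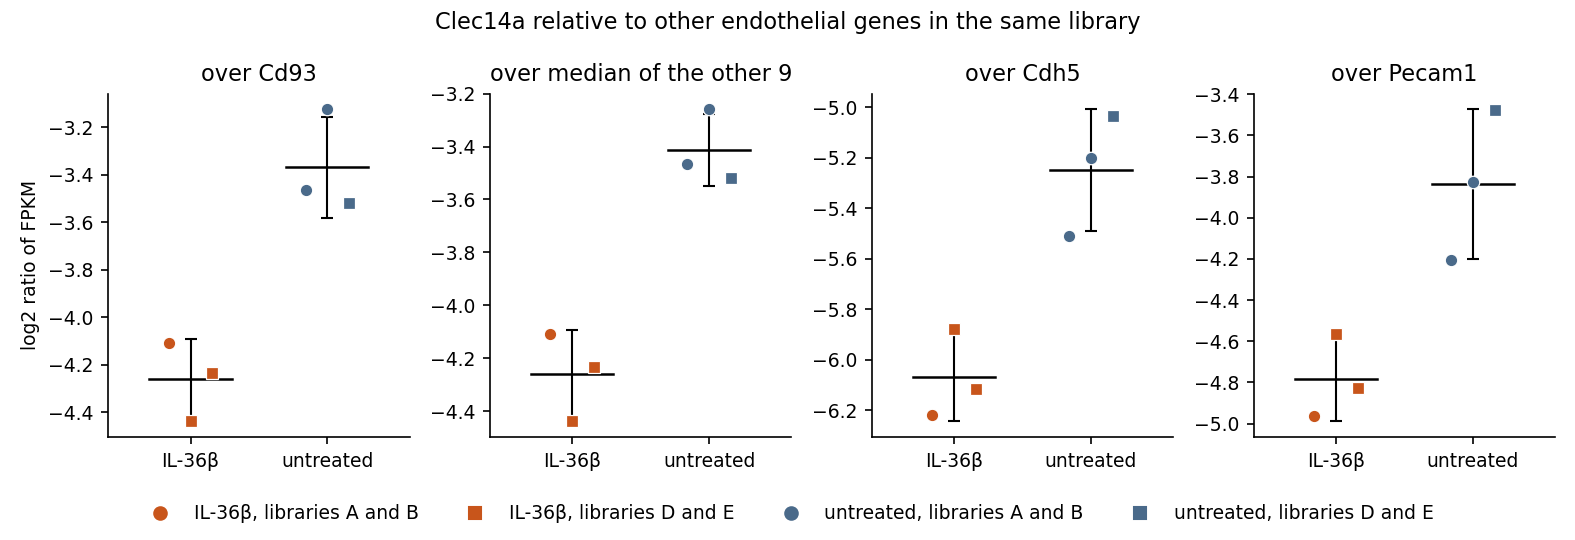
Log2 ratio of Clec14a to Cd93, to the median of the other 9 members, to Cdh5 and to Pecam1 in each library, with means and SD (n = 3 each). In all 4 panels the IL-36β libraries lie below the untreated libraries.

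CD93 is the second lectin-like receptor of the set, and its gene (chromosome 2, 148436640 to 148443563, minus strand) showed no difference past the threshold in any model run. Cd93 was 216, 319 and 306 FPKM with IL-36β and 259, 213 and 315 FPKM untreated. The groups overlapped, with a fold of 1.07 (0.771 to 1.47, limma adjusted p = 0.891). Its values split by library letter instead, at 213 to 259 FPKM in the libraries lettered A and B and 306 to 319 FPKM in those lettered D and E. This was 1.39-fold higher in D and E with treatment as the other term (limma adjusted p = 0.101). Within the sets the fold with IL-36β was 0.917 and 0.993, and the sign of its fitted difference turned with the set as a term.

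The wider list of group XIV C-type lectins and their ligands had 8 genes, of which 6 were tested and none passed in limma. Of these, 3 had unadjusted p under 0.05, all lower, against 4.41% of all genes tested (median log2 fold change of the list -0.14, 0.0023 over all genes). They were Clec14a, a member of the set, and 2 further lectins named after their values were seen. Thbd, the anticoagulant receptor thrombomodulin, lies 28452 bases from Cd93 and was 35.1, 37.7 and 35.0 FPKM with IL-36β and 43.1, 47.2 and 50.7 FPKM untreated. Its fold was 0.768 (0.660 to 0.894), with an adjusted p of 0.228 in limma and 0.0487 in DESeq2. Cd248, which encodes endosialin, known mainly from pericytes and fibroblasts, was 11.96, 8.98 and 5.07 FPKM with IL-36β and 12.5, 18.4 and 16.6 FPKM untreated. The fold of Cd248 was 0.540 (0.338 to 0.862, adjusted p = 0.369 in limma and 0.0533 in DESeq2). It was 0.796 within A and B and 0.425 within D and E, and 0.730 with the library letter as a block. In these 3 genes the groups did not overlap, with IL-36β lower, as in 7.24% of all genes tested. The fitted differences of the 2 ligand genes tested were above 0. Igfbp7, a secreted CD93 ligand, was 878 ± 197 FPKM with IL-36β and 654 ± 30.9 FPKM untreated (fold 1.32, 0.998 to 1.75, limma adjusted p = 0.486). Its IL-36β libraries all lay above the untreated ones, as in 8.95% of all genes tested. Mmrn2, encoding multimerin-2 and also named after its values were seen, was 166 ± 41.0 and 136 ± 17.0 FPKM in the same order (fold 1.21, 0.898 to 1.62, limma adjusted p = 0.625).

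**Figure D5:**
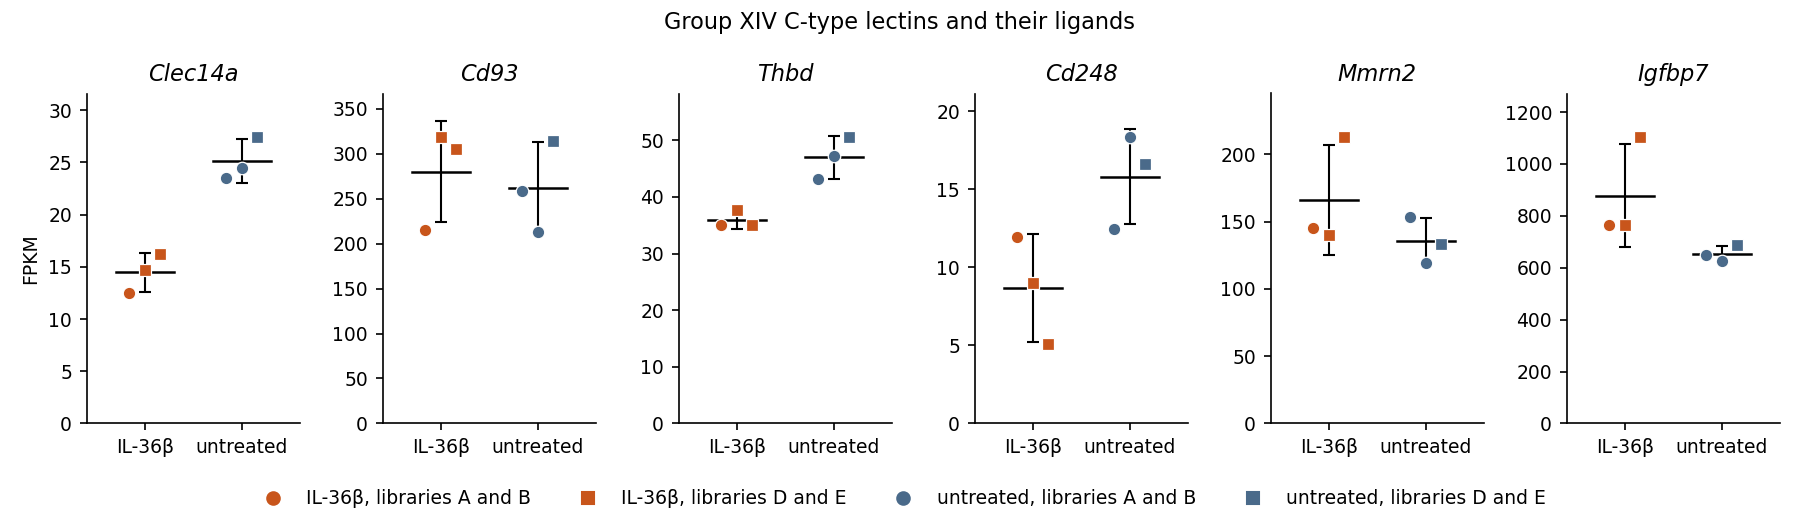
FPKM by library for the group XIV lectins Clec14a, Cd93, Thbd and Cd248 and the ligand genes Mmrn2 and Igfbp7, with means and SD (n = 3 each). The IL-36β libraries of Clec14a, Thbd and Cd248 all lie below the untreated ones, those of Igfbp7 lie above, and Cd93 and Mmrn2 overlap.

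Among the sialomucins, Cd34 had the highest fold of the 10 members. Cd34, a luminal adhesion protein also used as a marker of sprouting tip cells (chromosome 1, 194938819 to 194961279, plus strand), was 105, 94.5 and 119.9 FPKM in the IL-36β libraries and 96.5, 77.9 and 69.8 FPKM in the untreated ones. The groups overlapped in 1 pair, IL-36β replicate 2 lying just below untreated replicate 1. The fold was 1.31 (1.03 to 1.67) and missed the threshold (limma adjusted p = 0.434, edgeR 0.414, DESeq2 0.274). It was 1.21 within A and B and 1.52 within D and E, and DESeq2 called it only without untreated replicate 1 (adjusted p = 0.0442). Emcn, which keeps leukocyte contacts low on resting vessels (chromosome 3, 137341067 to 137432185, plus strand), was 467, 470.0 and 379.9 FPKM with IL-36β and 458, 488 and 453 FPKM untreated. Only IL-36β replicate 3 stood apart, below all others, and the fold was 0.938 (0.763 to 1.153, limma adjusted p = 0.817). Of 9 sialomucin genes 4 were tested, and none passed in limma, edgeR or DESeq2.

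The list of tip cell genes, which holds Cd34, had 14 members, all tested and none past the threshold in limma. Fitted fold changes were above 0 in 9 and the median log2 fold change was 0.18, beside 0.0023 over all genes. Its most abundant members were Apln, a ligand of the apelin receptor, at 1559 ± 170 FPKM with IL-36β and 1385 ± 137 FPKM untreated, and Angpt2, an antagonist of TIE2, at 1273 ± 220.4 and 937 ± 125 FPKM in the same order (limma adjusted p = 0.728 and 0.456). DESeq2 called 1 lower, against 0.808% of all genes it tested. It was the basement membrane gene Nid1, named after its values were seen. Nid1 was 139.9 ± 9.22 FPKM with IL-36β and 209 ± 4.65 FPKM untreated (adjusted p = 1.88e-05 in DESeq2 and 0.106 in limma).

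Of the immunoglobulin-domain members, Esam differed least between its untreated libraries. ESAM is a homophilic adhesion protein of endothelial tight junctions (chromosome 9, 37528078 to 37538319, plus strand). Esam was 352, 383 and 451 FPKM with IL-36β and 342, 330.1 and 344 FPKM untreated. All IL-36β libraries were above all untreated ones, as in 8.95% of genes tested, but by as little as 352 against 344 FPKM. The fold was 1.16 (0.949 to 1.42, limma adjusted p = 0.586), 1.05 within A and B and 1.21 within D and E.

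Mcam, an adhesion receptor for laminin-411 (chromosome 9, 44134469 to 44142727, plus strand), was 98.3, 108 and 129 FPKM with IL-36β and 131, 107 and 159 FPKM untreated. The groups overlapped, with a fold of 0.851 (0.648 to 1.12, limma adjusted p = 0.652). With the set as a term it was 0.787 (0.639 to 0.969, limma adjusted p = 0.315), and the fold was 0.831 within A and B and 0.745 within D and E. An antisense gene, Gm10687, overlaps Mcam and took 188 reads over the IL-36β libraries and 203 over the untreated ones, against 18923 and 22562 for Mcam.

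Robo4, the endothelial roundabout receptor that counters vessel leak in mice (chromosome 9, 37401897 to 37415115, plus strand), lies 112963 bases before Esam. Robo4 was 174, 147 and 210.0 FPKM with IL-36β and 184, 165 and 148 FPKM untreated. The groups overlapped fully (fold 1.06, 0.829 to 1.36, limma adjusted p = 0.859), and the sign of this difference turned without IL-36β replicate 3. Its neighbour Robo3, on the other strand with its 3′ end 554 bases from that of Robo4, was 0.786 ± 0.271 FPKM with IL-36β and 1.08 ± 0.409 FPKM untreated. Of 13 genes of the Slit and Robo pathway 8 were tested and none passed in limma, edgeR or DESeq2 (median log2 fold change -0.12, beside 0.0023 over all genes). After Robo4 the most abundant was Pxn, the adaptor paxillin, at 51.6 ± 10.2 FPKM with IL-36β and 42.7 ± 4.10 FPKM untreated (limma adjusted p = 0.589).

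Eng (chromosome 2, 32646595 to 32682669, plus strand) was 478, 545 and 615 FPKM with IL-36β and 524, 570 and 636 FPKM untreated. The ranges largely coincided, and the fold was 0.945 (0.750 to 1.19, limma adjusted p = 0.859). The protein-coding gene Fpgs overlaps Eng on the other strand and took 1086 reads over the IL-36β libraries and 1120 over the untreated ones, against 111559 and 120737 for Eng. Acvrl1, the type I receptor ALK1 that endoglin assists, was 297 ± 20.9 FPKM with IL-36β and 296 ± 13.9 FPKM untreated, a fold of 1.00 (0.841 to 1.19, limma adjusted p = 0.999). Of 18 genes of the endoglin receptor complex 16 were tested and none passed in limma, with 9 fitted fold changes above 0 and 7 below. DESeq2 called 1 of them lower, against 0.808% of all genes it tested. It was the inhibitory SMAD gene Smad7, named after its values were seen. Smad7 was 6.71 ± 0.554 FPKM with IL-36β and 9.62 ± 1.33 FPKM untreated (adjusted p = 0.0488 in DESeq2 and 0.254 in limma).

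The Ly6 members lie 45987 bases apart in the Ly6 cluster of chromosome 15 and differed in opposite directions, neither past the threshold. Ly6a (74994877 to 74998031, minus strand) was 1225, 1002 and 1249 FPKM with IL-36β and 1156, 1025 and 785 FPKM untreated. Untreated replicate 3 was the lowest library, the groups overlapped, and the fold was 1.18 (0.874 to 1.596, limma adjusted p = 0.675). Ly6a was 1.13-fold higher within A and B and 1.42-fold higher within D and E. Ly6c1 (75044018 to 75048830, minus strand) was 203, 201 and 232 FPKM with IL-36β and 238, 234 and 224 FPKM untreated. Here IL-36β replicate 3 reached into the untreated range, and the fold was 0.911 (0.771 to 1.08, limma adjusted p = 0.673).

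The log2 ratio of Ly6a to Ly6c1 was 2.45 ± 0.136 with IL-36β and 2.07 ± 0.241 in untreated cells (SD, n = 3 each), with no overlap of groups (exact permutation p = 0.1, the smallest possible, 0.14 adjusted over 7 ratios). Ly6 genes are close paralogs, and the counting of reads they share (not given in the sources used here) leaves their levels uncertain. Ly6c2, the near copy of Ly6c1, took 22 reads over the IL-36β libraries and 9 over the untreated ones, against 17894 and 20228 for Ly6c1. Of 32 Ly6 family genes 30 were in the table and 7 were tested, and none passed in limma, edgeR or DESeq2, nor at an unadjusted p under 0.05. After Ly6a the most abundant was Ly6e, at 347, 267 and 322 FPKM with IL-36β and 284, 252 and 198 FPKM untreated (fold 1.28, 0.975 to 1.68, limma adjusted p = 0.526).

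Other genes of endothelial identity mostly missed the threshold as well. Of 28 further pan-endothelial genes 27 were tested and none passed in limma or edgeR. Of these, 6 were higher and 3 lower at an unadjusted p under 0.05, against 5.96% and 4.41% of all genes tested, and the median log2 fold change was 0.16, beside 0.0023 over all genes. DESeq2 called 2 higher and 1 lower, against 1.29% and 0.808% of all genes it tested, named here after their values were seen. They were Cldn5, the tight junction protein claudin-5, at 267 ± 85.4 FPKM with IL-36β and 157 ± 20.9 FPKM untreated (adjusted p = 0.0222 in DESeq2 and 0.378 in limma, groups overlapping), Sox7, a SOX family transcription factor, at 31.3 ± 5.63 and 17.3 ± 2.84 FPKM in the same order (0.000248 in DESeq2 and 0.131 in limma), and Slco1a4, an organic anion transporter of the blood-brain barrier. Slco1a4 was 0.644 ± 0.195 FPKM with IL-36β and 1.84 ± 0.353 FPKM untreated (1.58e-05 in DESeq2 and 0.131 in limma). The most abundant, Cdh5, was 974 ± 135 FPKM with IL-36β and 956 ± 97.1 FPKM untreated (limma adjusted p = 0.971). Adgrl4, an adhesion G protein-coupled receptor of endothelium, was 532 ± 58.0 FPKM with IL-36β and 621 ± 80.4 FPKM untreated (limma adjusted p = 0.623). Among 17 matched genes of endothelial immunoglobulin-domain adhesion 15 were tested and none passed in limma, edgeR or DESeq2. At an unadjusted p under 0.05, 3 were higher (F11r, Icam2 and Nectin2) and 1 lower (Clmp), named after their values were seen. Over all genes tested the shares were 5.96% and 4.41%. The most abundant gene of this list, Pecam1, was 400.0 ± 57.3 FPKM with IL-36β and 362 ± 64.5 FPKM untreated (limma adjusted p = 0.779). The list of transcription factors of endothelium had 19 tested genes, 15 of them with fitted fold changes above 0 (median log2 fold change 0.17, beside 0.0023 over all genes). None passed in limma or edgeR, and DESeq2 called 1 higher, again Sox7. Its most abundant members were Erg, at 105 ± 11.2 FPKM with IL-36β and 89.9 ± 10.1 FPKM untreated, and Sox18, at 92.6 ± 46.5 and 64.7 ± 7.43 FPKM in the same order (limma adjusted p = 0.576 and 0.655).

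Markers of other cells were checked beside these results. All 8 defining endothelial markers were tested, with a summed level of 1614 to 2238 FPKM with IL-36β and 1573 to 1933 FPKM untreated. The 12 markers of pericytes and smooth muscle summed to 358 to 809 FPKM with IL-36β and 401 to 1361 FPKM untreated, mostly from Acta2, and 7 of 12 averaged at least 1 FPKM. DESeq2 called 1 of these lower, against 0.808% of all genes it tested. It was the smooth muscle myosin gene Myh11, named after its values were seen. Myh11 was 3.52 ± 1.32 FPKM with IL-36β and 8.07 ± 3.11 FPKM untreated (adjusted p = 0.00447 in DESeq2 and 0.315 in limma). Of the 12, Rgs5 was at most 0.315 FPKM and Pdgfrb at most 3.39 FPKM in any library, both named after their values were seen. The part of this signal in the results for Mcam and Cd248 was not tested. Fibroblast markers summed to 2.35 to 4.70 FPKM with IL-36β and 2.09 to 2.63 FPKM untreated. Those of microglia and macrophages summed to 6.86 to 9.43 and 6.96 to 7.80 FPKM in the same order, with C1qa, C1qb and Adgre1 at 0 in every library. Neuronal markers, mostly Tubb3, summed to 7.004 to 24.3 and 6.86 to 13.7 FPKM with Snap25 at 0. Their sums split by library letter, at 6.86 to 7.004 FPKM in A and B and 13.7 to 24.3 FPKM in D and E. Markers of astrocytes, oligodendrocytes and leukocytes stayed under 2 FPKM in sum.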

How the data were processed

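Per the labels' protocols, the 6 BMVEC libraries came from a stranded mRNA kit and an Illumina NextSeq run. Build GRCm38 and, without roles, the tools DESeq2 1.38.3, featureCounts 1.50-p3, HISAT2 2.05, StringTie and fastp are listed in the submitters' processing notes. Whether counting used strand: not given in the sources used here. Deposited values were FPKM, made by the authors, for 54532 genes. FPKM times gene length, divided by 1 constant per library, gave whole reads (within 0.01) in 100% of values, equal to the deposited counts in all 660 genes of a second table, which also holds the authors' p-values. That table's 8 columns of 4 libraries matching no label were not used.

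Samples were grouped by title. The test was limma 3.58.1 (R 4.3.3, trended prior, two-sided) on log2(FPKM + 0.5) for the 12618 genes that reached 0.5 FPKM in 3 or more of the 6 libraries, with Benjamini-Hochberg adjusted p under 0.05 over all of them. Fold changes are on that scale and run small for low genes. Alternatives were edgeR 4.0.16 and DESeq2 1.42.0 on recovered reads, other pseudocounts, filters, scalings, weights and blocks, the library set, and leaving out libraries. Within-set folds compare mean log2 values, untested. Fits with the library letter as a block rest on A24 with A0 and D24 with D0 alone. Levels are means ± SD. Named genes were all members and, per list, genes past the threshold or else the 2 most abundant; others are marked as chosen after their values were seen. The members, lists and library sets were chosen with earlier results of these data known. Of the list symbols, Ly6m, Ly6g2 and Cd99 were not matched. Upstream sequences and gene starts are RefSeq's (GRCm38.p6), and exon counts are from GENCODE M21, whose coordinates equal the deposited ones for all 10 members.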

Additional observations from a re-analysis of the deposited data

How the results depend on the processing

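Over 19 alternatives no member was called higher, and the count of members called lower was 1, always Clec14a, with edgeR, DESeq2, library weights, the library letter as a block and the library set as a term, and 0 otherwise. Leaving out 1 library, the count called lower stayed at 0 in limma and edgeR, was 0 to 1 with the set term and 1 throughout with DESeq2, and the count called higher was 0 to 1 with DESeq2, where Cd34 passed once. Leave-one-out fits with edgeR, DESeq2 or the set term were added after the data were seen. The log2 fold change of Clec14a ranged from -0.88 to -0.68 over the 19 alternatives (adjusted p of 6.93e-06 to 0.307). The median over the members ranged from -0.15 to 0.051. It was -0.15 under quantile scaling, beside -0.0033 over all genes tested. With the letter as a block it was -0.083 beside -0.00026, and with the set term -0.063 beside 0.0011. With library weights it was -0.023 beside 7.7e-05, in edgeR 0.0016 beside -0.00042 and in DESeq2 -0.00086 beside -0.0039.

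Signs turned in 4 members, Cd93, Emcn, Eng and Robo4. The log2 fold change of Cd93 was -0.057 under quantile scaling, -0.12 with the letter as a block and -0.068 with the set term. Leaving out 1 library it was -0.049 to 0.27 in limma. Without IL-36β replicate 2 it was -0.014 in limma, -0.020 in edgeR and -0.017 in DESeq2, and without untreated replicate 2 it was -0.039 in edgeR and -0.042 in DESeq2. With the set term it was -0.010, -0.090 and -0.063 without IL-36β replicates 1, 2 and 3, and -0.12 and -0.13 without untreated replicates 2 and 3. That of Emcn was 0.042 with the letter as a block and -0.14 to 0.0085 without 1 library in limma. Without IL-36β replicate 3 it was 0.0097 in edgeR, 0.0017 in DESeq2 and 0.014 with the set term. That of Eng was -0.17 to 0.011 without 1 library in limma, turning without IL-36β replicate 1. That of Robo4 was -0.050 under quantile scaling, -0.044 with the letter as a block and -0.042 to 0.21 without 1 library in limma. Without IL-36β replicate 3 it was -0.041 in edgeR, -0.049 in DESeq2 and -0.0032 with the set term. The causes were not tested.

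Title numbers and library letters disagree on which libraries belong together. Deviations of same-numbered libraries correlated at 0.207, -0.141 and 0.211, and those of the other pairs at -0.455 to 0.388. Sorted by library set, pairs within A and B or within D and E correlated at 0.207 to 0.388. Pairs across these sets correlated at -0.455 to -0.0144. These values do not settle whether the libraries are paired. With the title number as a replicate block in limma 0 members were called, with an adjusted p of 0.0771 for Clec14a. Every member had at least 887 reads per library, and the widest 95% interval among them, that of Cd93, ran from -0.38 to 0.56 (log2).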
